A study of Mus musculus with 8 samples.

Results

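The respiratory chain genes described here are the nuclear genes whose symbols name subunits of the mitochondrial complexes I to V. They were taken by symbol from a comparison of Flt3-Cre-recombined (GFP+) and unrecombined (Tomato+) mouse fetal liver progenitors, as the symbols that begin with Nduf, Uqcr or Atp5, the symbols Sdha to Sdhd, and those that begin with Cox4 to Cox8. The rule used no measured value and found 87 genes among 14033 symbols in 14268 rows. Of these, 42 belonged by name to complex I, 4 to complex II, 8 to complex III, 16 to complex IV and 17 to complex V. By textbook knowledge 78 of the 87 encode subunits of the complex they are named for. Another 7 do not encode subunits: the complex I assembly factors Ndufaf1 to Ndufaf4, Cox4nb, Atp5s and Atp5sl. The remaining 2, Ndufa4 and Ndufa4l2, are named for complex I, but the Ndufa4 protein is now assigned to complex IV and Ndufa4l2 is its paralog.

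All libraries came from E14.5 fetal livers of embryos from Flt3-Cre mice crossed to the mTmG reporter strain. Both groups therefore come from the same cross and passed the same sort gate, Lin- cKit+ Sca1+ CD150+. In this reporter Tomato is replaced by GFP after Cre has acted, so GFP+ cells have a history of expression from the Flt3 driver. Tomato+ cells show no recombination, and the reporter cannot tell whether the driver was ever expressed in them. There were 4 GFP+ and 4 Tomato+ libraries of bulk RNA, whose embryos, litters and sort days are not given in the labels, so the authors' p-values may measure technical spread only. The deposited values are group means of normalized counts, which are read counts scaled between libraries, with the authors' p-values. No value per library was analysed here, so no SD is given. Averages of a gene are in normalized counts, GFP+ first and Tomato+ after it.

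The respiratory chain passes electrons from NADH (complex I) and succinate (complex II) through ubiquinone to complex III, then through cytochrome c to complex IV, where oxygen is reduced. Complexes I, III and IV pump protons, and complex V, the ATP synthase, uses the returning protons to make ATP. Most subunits are encoded in the nucleus and a few core subunits of complexes I, III, IV and V in mitochondrial DNA. Quiescent hematopoietic stem cells of adult bone marrow are known for leaning on glycolysis, and their mitochondrial respiration to increase as they leave quiescence or differentiate. The cells here are fetal, and whether this holds for them was not tested.

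The sort genes Kit, Ly6a, Slamf1, Flt3, Cd34 and Cd48 were detected in both groups, with Slamf1, which encodes the CD150 of the gate, averaging 27.9 in GFP+ against 119 in Tomato+ per the authors' deposited table. Most markers of other fetal liver cells were higher in GFP+. Of 12 measured erythroid markers 9 were called higher, and the list's summed mean was 39744 in GFP+ and 13455 in Tomato+. Much of these sums came from Hba-a2 (16122 and 4190) and Hbb-b1 (15589 and 4780). Epor (133 and 247), Klf1 (232 and 319) and Ermap (561 and 697) had lower means in GFP+ and were not called. All 11 measured hepatoblast markers were called higher (sums 3116 and 1022), as were 9 of 11 macrophage markers (sums 1507 and 478). No marker of these lists had a group mean of 0. The part of these cells in the results below was not tested, and in bulk RNA fewer cells of a type and less RNA per cell cannot be told apart.

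Nearly all respiratory chain genes averaged slightly more normalized counts in GFP+ than in Tomato+, and few of them passed the test singly. Of the 87 genes, 81 had a log2 ratio of GFP+ over Tomato+ above 0, against 51.2% of all rows. Their median log2 ratio was 0.28, a 1.21-fold difference, with quartiles of 0.17 and 0.35. The median over all 14268 rows was 0.01, with quartiles of -0.23 and 0.21. At the authors' Benjamini-Hochberg adjusted p under 0.05, 8 of the 87 rose in GFP+ and 1 fell. Over all rows 4.86% were called higher and 2.64% lower, 7.49% in all, so that the 9 calls (10.3% of the genes) are near the background. At an unadjusted p under 0.05, 36 of the 87 (41.4%) passed, 34 of them higher, against 16.2% of all rows, 10.2% higher and 6.01% lower. The genes that rose were Ndufa4, Sdhb, Uqcrq, Cox4i1, Cox6c, Cox6a2, Atp5b and Atp5k, and the gene that fell was Ndufa4l2.

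The sum of all row means was larger in GFP+ than in Tomato+, by 0.16 on the log2 scale. With both groups set to the same total every log2 ratio drops by that amount, and 69 of the 87 genes stay above 0, against 30.9% of all rows. The median of the 87 is then 0.12. The sign turned for 12 genes, none of them among the 9 called. The summed mean of the 87 genes made up 1.14% of the GFP+ total and 1.04% of the Tomato+ total.

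**Figure D1:**
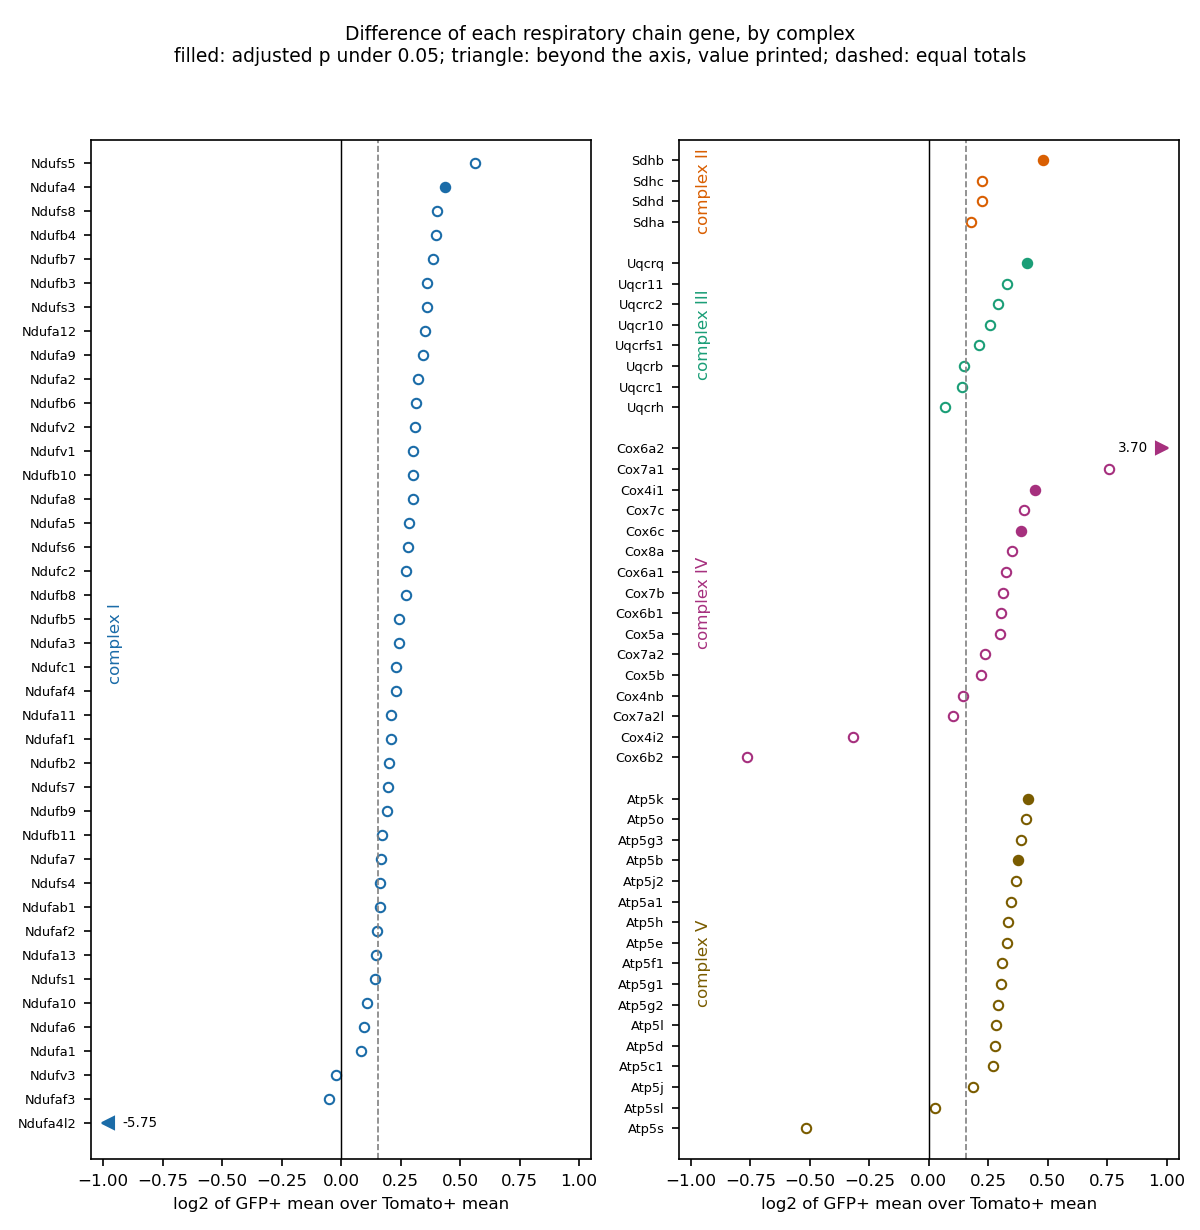
Log2 ratio of GFP+ over Tomato+ group means (horizontal axis) for 86 of the 87 genes (vertical axis), ordered within complexes I to V; filled symbols passed the authors' adjusted p under 0.05, triangles lie beyond the axis with their value printed, and the dashed line marks a ratio equal to that of the summed means. Of the 86 points, 80 lie right of 0 and most of them between 0.1 and 0.45.

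The median log2 ratio of all rows shifted toward GFP+ as the mean count grew, from -0.17 below 50 to 0.38 at 5000 or more. The genes were therefore also read against rows of similar level. In rows with a mean of 200 to 500, the 19 respiratory genes had a median log2 ratio of 0.23 and the 3435 other rows one of 0.01. From 500 to 1000, the 37 genes had a median of 0.30 and all 37 were above 0, while the 2112 other rows had a median of 0.05 and 60.0% were above 0. In this range 19 of the 37 genes passed an unadjusted p under 0.05, against 13.1% of the other rows, and 4 (10.8%) passed the adjusted p, against 5.16%. From 1000 to 2000, the 18 genes had a median of 0.28 and the 1120 other rows 0.10. From 2000 to 5000, the 3 genes had a median of 0.31 and the 441 other rows 0.18. The order was reversed at 2 other levels, where the genes were few. In rows with a mean of 50 to 200, the 4 respiratory genes Ndufaf1, Ndufaf3, Cox6b2 and Atp5s had a median of -0.28, with 1 of the 4 above 0, and the 3307 other rows one of -0.06. Of these 4, only Cox6b2 encodes a subunit. At means of 5000 or more, the 2 respiratory genes, Atp5a1 and Atp5b, had a median of 0.36 and the 161 other rows 0.39. Below a mean of 50, the 4 genes Ndufa4l2, Cox4i2, Cox6a2 and Cox7a1 ranged from -5.75 to 3.70 with a median of 0.22, and the other rows had a median of -0.17. Most respiratory differences were smaller than the differences that were usually called. The called rises among all rows with a mean of 500 to 1000 had a median log2 ratio of 0.57 and a 10th percentile of 0.39.

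**Figure D2:**
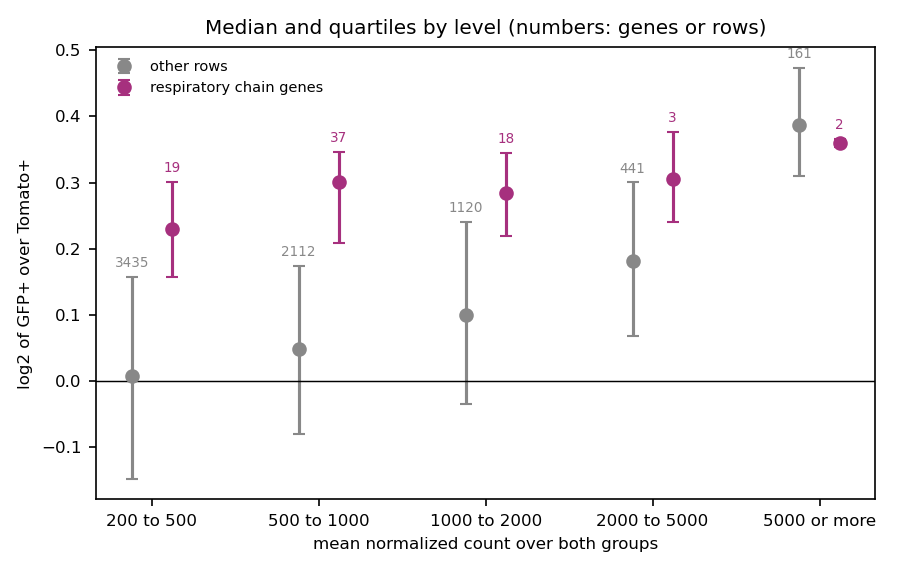
Median (points) and quartiles (bars) of the log2 ratio of GFP+ over Tomato+ for respiratory chain genes and all other rows, in bins of the mean normalized count from 200 upward; the numbers count genes or rows. In the 4 bins from 200 to 5000 the median of the respiratory genes lies above that of the other rows, and at 5000 or more it does not.

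Nuclear respiratory genes are known as targets of the transcription factors NRF1, GABP (an ETS factor) and YY1, and their promoters are shown because the genes lie close together in this comparison. Promoter windows of 300 bases (250 before to 50 after the annotated start) were taken from RefSeq, build GRCm38.p6, and 72 of the 87 genes matched, with 78 windows. Their median GC content was 58.5%, against 60.3% for all genes in the table. On both strands, the NRF1 motif GCGCANGCG was found in 22 of the 78 windows (28.2%), against 12.7% of the 13093 windows of all genes in the table. The ETS motif CCGGAAG was found in 17 windows (21.8%, against 16.9%) and the YY1 motif AAGATGGCG in 9 (11.5%, against 2.89%). No matches of different motifs overlapped in these windows. At least 1 of the motifs was present in 40 windows, and 6 genes held both the NRF1 and the ETS motif. The median log2 ratio was 0.29 for the 21 genes with the NRF1 motif and 0.26 for the 51 without, 0.33 and 0.26 for the ETS motif, and 0.21 and 0.28 for the YY1 motif. The letters of a motif thus separated the genes by little, and a match is a description of the sequence, not a binding site. The 150 bases before the start are given below for 4 of the 6 genes with both motifs, those whose NRF1 match lies there, and for Atp5b, which rose and had no match in its window. Each is written 5′ to 3′ on the gene's strand, with motif matches in capitals; in Atp5k the ETS match and in Cox6a1 2 of the 3 NRF1 matches lie outside the stretch shown, and in Atp5k 2 NRF1 matches overlap.
Atp5h, chr11:115419920-115420069, minus strand: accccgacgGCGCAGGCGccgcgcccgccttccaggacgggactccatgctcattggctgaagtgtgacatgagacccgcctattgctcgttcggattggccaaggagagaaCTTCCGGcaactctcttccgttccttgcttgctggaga
Cox6a1, chr5:115348959-115349108, minus strand: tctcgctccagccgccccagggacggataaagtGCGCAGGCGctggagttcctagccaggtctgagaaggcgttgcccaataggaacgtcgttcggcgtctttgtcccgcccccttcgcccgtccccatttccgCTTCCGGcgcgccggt
Sdhd, chr9:50603850-50603999, minus strand: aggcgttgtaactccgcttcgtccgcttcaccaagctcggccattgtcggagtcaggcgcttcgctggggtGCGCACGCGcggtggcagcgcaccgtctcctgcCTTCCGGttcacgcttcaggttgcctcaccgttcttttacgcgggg
Atp5k, chr5:108434400-108434549, minus strand: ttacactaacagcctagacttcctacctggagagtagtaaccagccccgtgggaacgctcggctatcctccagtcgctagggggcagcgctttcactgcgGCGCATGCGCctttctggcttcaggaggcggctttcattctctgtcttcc
Atp5b, chr10:128083157-128083306, plus strand: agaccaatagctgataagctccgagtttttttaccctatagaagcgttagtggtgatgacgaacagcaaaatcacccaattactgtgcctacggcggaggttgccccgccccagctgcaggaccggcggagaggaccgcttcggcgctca

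Complex I, the NADH dehydrogenase, had higher means in GFP+ for nearly all genes of its own subunits, and none of these genes passed. All 36 such genes were measured in both groups, 35 had a log2 ratio above 0, and their median was 0.26, with a range from -0.02 to 0.56. None was called, and 10 of the 36 (27.8%) had an unadjusted p under 0.05. The largest difference was that of Ndufs5, an accessory subunit, which averaged 386 in GFP+ against 262 in Tomato+ per the authors' deposited table, a 1.47-fold difference with an adjusted p of 0.128. Ndufv3, an accessory subunit of the NADH-binding arm, was the only gene of the 36 below 0, at 388 against 394 per the authors' deposited table.

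The nuclear core subunits of complex I include those that hold its flavin and iron-sulfur clusters, and the 6 described here had higher means in GFP+. In the NADH-binding arm, Ndufv1, which binds NADH and flavin, averaged 1031 in GFP+ against 836 in Tomato+ per the authors' deposited table. Ndufv2, an iron-sulfur subunit, averaged 940 against 758 in the authors' deposited table. Ndufs1, the largest subunit, averaged 1086 against 984 per the authors' deposited table. Its log2 ratio of 0.14 turned to -0.01 with equal totals. In the arm that reduces ubiquinone, the iron-sulfur subunit Ndufs8 averaged 682 against 515 with an adjusted p of 0.204 in the authors' deposited table. Ndufs3 stood at 684 and 533 and Ndufs7 at 737 and 644 in the authors' deposited table. The median log2 ratio of the 29 accessory subunits was 0.24.

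Among the accessory subunits, Ndufb4 and Ndufb7 of the membrane arm followed Ndufs5, with log2 ratios of 0.40 and 0.39 and adjusted p-values of 0.257 and 0.102 per the authors' deposited table. The smallest positive differences were those of Ndufa1, Ndufa6 and Ndufa10, at log2 ratios of 0.08, 0.10 and 0.11 in the authors' deposited table. These turn below 0 with equal totals, as does Ndufa13, at 0.15 before. Ndufa3 had 2 rows, and the row with fewer counts gave a log2 ratio of the same sign. The 4 assembly factors Ndufaf1 to Ndufaf4, which help build the complex and are not part of it, had log2 ratios from -0.05 to 0.23, and none passed an unadjusted p under 0.05.

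The called genes with Nduf symbols were Ndufa4, whose protein is now assigned to complex IV, and its paralog Ndufa4l2. Ndufa4 averaged 1791 in GFP+ against 1325 in Tomato+ cells, 1.35-fold more in GFP+ (the authors' deposited table, adjusted p = 0.0159). Ndufa4l2, a paralog known to be induced by hypoxia, went the other way, at averages of 0.515 in GFP+ against 27.7 in Tomato+ cells and an adjusted p of 0.000343 in the authors' deposited table. A GFP+ mean under 1 normalized count leaves the size of this difference poorly fixed, and whether all 4 Tomato+ libraries shared the higher value was not analysed here.

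Complex II, succinate dehydrogenase, is shared with the citric acid cycle and encoded in the nucleus only. All 4 genes had higher means in GFP+, and 1 rose. Sdhb, the iron-sulfur subunit, averaged 1021 in GFP+ against 733 in Tomato+ cells, 1.39-fold more in GFP+ (the authors' deposited table, adjusted p = 0.0422). Sdha, the flavoprotein that oxidises succinate, averaged 2702 against 2393 with an adjusted p of 0.594 in the authors' deposited table. The membrane anchors Sdhc and Sdhd stood at 951 against 815 and at 1307 against 1120 in the authors' deposited table. The log2 ratio of Sdhb was thus 0.48 and those of the other 3 genes lay from 0.18 to 0.22.

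Complex III, the cytochrome bc1 complex, had 8 genes under the symbol rule, which does not take Cyc1 (cytochrome c1). All 8 had higher means in GFP+, 1 rose and 3 had an unadjusted p under 0.05. Uqcrq, a small subunit next to cytochrome b, averaged 662 in GFP+ against 498 in Tomato+ cells, 1.33-fold more in GFP+ (the authors' deposited table, adjusted p = 0.0225). Uqcr11, another small subunit, averaged 593 against 472 with an adjusted p of 0.101 in the authors' deposited table. Uqcrfs1, the Rieske iron-sulfur protein that carries electrons to cytochrome c1, averaged 898 against 777 in the authors' deposited table. The core proteins Uqcrc1 and Uqcrc2 had log2 ratios of 0.14 and 0.29 in the authors' deposited table. Uqcrh, the hinge protein at cytochrome c1, was closest to equal, at 809 against 772 per the authors' deposited table. With equal totals 5 of the 8 genes stay above 0, and Uqcrh, Uqcrc1 and Uqcrb do not.

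Complex IV, cytochrome c oxidase, combined an even shift of its common subunits with wide differences among isoforms that are used in few tissues. Its 10 common or single-copy subunits had log2 ratios from 0.22 to 0.45 with a median of 0.32, 2 of them rose, and 8 had an unadjusted p under 0.05. Cox4i1, the common isoform of the regulatory subunit 4, averaged 2475 in GFP+ against 1814 in Tomato+ cells, 1.36-fold more in GFP+ (the authors' deposited table, adjusted p = 0.0105). Cox6c, a small membrane subunit, averaged 971 against 743, 1.31-fold more in GFP+ (the authors' deposited table, adjusted p = 0.0424). Cox7c and Cox8a, also small membrane subunits, had adjusted p-values of 0.082 and 0.137 per the authors' deposited table, with means of 1162 against 881 and 1127 against 884. Cox5a and Cox5b, which face the matrix, averaged 957 against 779 and 1138 against 979 per the authors' deposited table. Cox7a2l, known for joining complex IV to complex III in supercomplexes, had a log2 ratio of 0.10 and an adjusted p of 0.82 in the authors' deposited table. Cox4nb, the neighbour of Cox4i1 in the genome and not a subunit, averaged 571 against 516 in the authors' deposited table.

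The 4 isoforms of restricted use lay on both sides of 0. Cox6a2, the isoform of heart and skeletal muscle, averaged 24.3 in GFP+ against 1.87 in Tomato+ cells and rose (the authors' deposited table, adjusted p = 0.00817). Cox7a1, also of muscle, averaged only 6.58 against 3.89 in the authors' deposited table and did not pass. Cox6b2, an isoform of testis, went the other way at averages of 98.1 in GFP+ against 167 in Tomato+ cells, with an adjusted p of 0.255 in the authors' deposited table. Cox4i2, an isoform of lung that responds to oxygen, averaged 44.4 against 55.5 in the authors' deposited table and did not pass.

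Levels of isoform pairs were compared per kb of transcript, with median lengths of the protein-coding transcripts in GENCODE M21 (GRCm38), while the authors counted on mm9. On this scale the common isoform made up most of each pair in both groups. Cox6a1 held 98.5% of the summed Cox6a1 and Cox6a2 level in GFP+ and 99.9% in Tomato+. Cox4i1 held 98.2% and 97.0% of its pair, and Cox7a2 98.4% and 98.9%. The share of Cox6b2 in the Cox6b pair was larger, at 9.25% in GFP+ and 17.6% in Tomato+. Ndufa4l2 held 0.0142% of the Ndufa4 pair in GFP+ and 1.02% in Tomato+. The called changes of Cox6a2 and Ndufa4l2 thus concern minor isoforms.

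**Figure D3:**
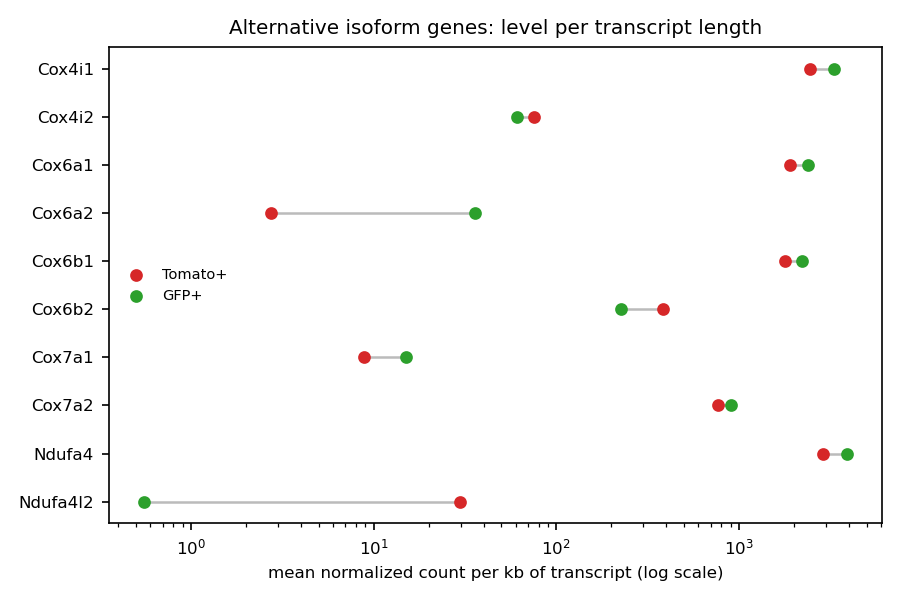
Mean normalized count per kb of transcript (horizontal log axis) of isoform pairs in GFP+ (green) and Tomato+ (red); each point is a group mean over 4 libraries, with no error available. Common isoforms lie at 767 or more in both groups, and Cox6a2 and Ndufa4l2 show the widest gaps between groups.

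**Figure D4:**
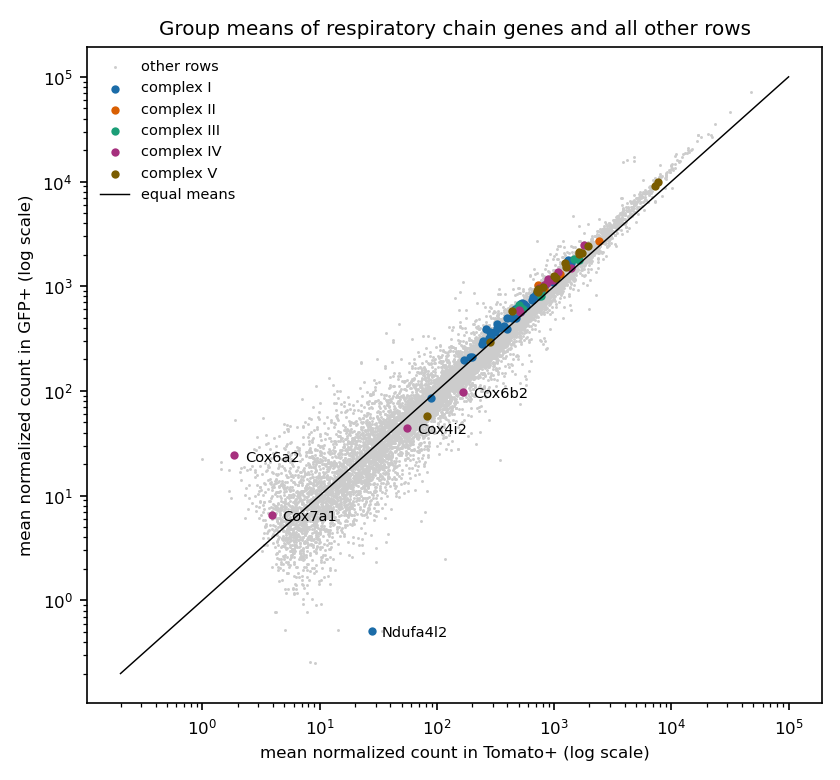
Group mean in GFP+ (vertical) against Tomato+ (horizontal) on log axes for the 87 genes, coloured by complex, and for all other rows in grey; the line marks equal means. Most respiratory genes lie just above the line, and Ndufa4l2 and Cox6a2 lie far from it at low means.

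Complex V, the ATP synthase, had the narrowest range of log2 ratios among the subunit genes of the 5 complexes. The 10 common or single-copy subunits of complex IV, without its restricted isoforms, had a range of nearly the same width, from 0.22 to 0.45. All 15 subunit genes of complex V had log2 ratios above 0, from 0.19 to 0.41, with a median of 0.33, and all 15 stay above 0 with equal totals. Of these, 2 rose and 10 had an unadjusted p under 0.05. In the catalytic head, Atp5b (beta) averaged 9881 in GFP+ against 7630 in Tomato+ cells, 1.30-fold more in GFP+ (the authors' deposited table, adjusted p = 0.0338). Atp5a1 (alpha), its partner in the head, averaged 9158 against 7200 with an adjusted p of 0.0883 in the authors' deposited table. At means of 5000 or more, where both genes lie, 69.6% of the 161 other rows were called higher. The median log2 ratio of those rows was 0.39, beside 0.37 for Atp5b and 0.35 for Atp5a1. The central stalk genes Atp5c1, Atp5d and Atp5e had log2 ratios of 0.27, 0.28 and 0.33 in the authors' deposited table.

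In the membrane part, Atp5k (subunit e), which takes part in pairing of synthase molecules, averaged 577 against 433, 1.33-fold more in GFP+ (the authors' deposited table, adjusted p = 0.023). Atp5j2 (subunit f) and Atp5o, the stalk protein that confers oligomycin sensitivity, came just short of the threshold, with adjusted p-values of 0.0505 and 0.0526 per the authors' deposited table. Atp5g1, Atp5g2 and Atp5g3, which encode the same ring protein with different import sequences, had log2 ratios of 0.30, 0.29 and 0.39 per the authors' deposited table, none past the threshold. Their averages were 994 against 805, 2013 against 1644 and 2123 against 1624 per the authors' deposited table. At an adjusted p under 0.1 the count for complex V would be 8 of 17 in place of 2. The share of all rows called at 0.1 was not computed, so this count has no background to be read against. Atp5s and Atp5sl, which carry the synthase name and are not subunits, had log2 ratios of -0.52 and 0.03 in the authors' deposited table and did not pass.

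The median log2 ratio was 0.24 over the genes named for complex I, 0.22 for complex II, 0.23 for complex III, 0.31 for complex IV and 0.31 for complex V. Whether these medians differ was not tested, and the quartile ranges of complexes I (0.16 to 0.31), III (0.15 to 0.30), IV (0.20 to 0.39) and V (0.28 to 0.37) overlap. The summed mean of complex V was 37922 in GFP+ and 30094 in Tomato+, a log2 ratio of 0.33, and that of complex I was 24772 and 20689, a log2 ratio of 0.26.

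Other genes of respiration were read from lists of their own, and their differences from the subunits were not tested. Of 28 measured assembly factors of all complexes, none was called and none had an unadjusted p under 0.05, with a median log2 ratio of 0.10. In the range of means from 200 to 500, 15 assembly factors had a median of 0.09, beside the 0.23 of the 19 respiratory genes in that range, which include 2 of these factors. Of 9 electron carriers and quinone-reducing enzymes 1 rose: Cycs, cytochrome c, with means of 1619 and 1125 (the authors' deposited table, adjusted p = 0.0095). Prodh, proline dehydrogenase, had the second smallest p-value and a log2 ratio of -0.49 with an adjusted p of 0.20 in the authors' deposited table. The same 9 include Cyc1, cytochrome c1, a complex III subunit that the symbol rule did not take. It averaged 1277 against 1035 with an adjusted p of 0.349 in the authors' deposited table. Of 6 carriers and channels for ATP and phosphate 1 rose: Slc25a5, an ATP and ADP exchanger, with means of 4960 and 3671 (the authors' deposited table, adjusted p = 0.0195). Of 16 citric acid cycle and pyruvate dehydrogenase genes none passed the adjusted test and 4 had an unadjusted p under 0.05, with a median log2 ratio of 0.19. Mdh2, malate dehydrogenase, averaged 2616 against 1965 with an adjusted p of 0.0722 in the authors' deposited table.

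Regulators of respiratory genes showed no called difference. None of 16 measured regulators passed the adjusted or the unadjusted test, and their median log2 ratio was 0.09. Nrf1, which binds the motif searched above, averaged 334 in GFP+ against 316 in Tomato+ per the authors' deposited table. Gabpa, the DNA-binding subunit of GABP, had 897 and 832, and Tfam, which packs and transcribes mitochondrial DNA, 710 and 651, in the authors' deposited table. Ppargc1a, a coactivator of mitochondrial biogenesis, averaged only 11.5 against 12.4 in the authors' deposited table. These are RNA levels and do not report the activity of the proteins.

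Rows whose symbols name genes of the mitochondrial genome rose, with log2 ratios from 0.49 to 0.72, beside a median of 0.28 for the 87 nuclear genes. Only mt-Nd4, a complex I core subunit, was on the list, and Cytb, Atpase6 and Cox2 were found in the table after its values had been seen. The mt-Nd4 row averaged 17182 in GFP+ against 12214 in Tomato+ cells, a log2 ratio of 0.49 (the authors' deposited table, adjusted p = 0.00313). Cytb, cytochrome b of complex III, averaged 35130 against 23562, a log2 ratio of 0.58 (the authors' deposited table, adjusted p = 9.25e-05). Atpase6, a proton channel subunit of complex V, had 2 rows that averaged 27669 and 27649 in GFP+ against 16815 and 16887 in Tomato+ per the authors' deposited table, so that reads may be shared between near-identical copies. The symbol Cox2 is used for a complex IV subunit and also as an older name of Ptgs2. By row identifier, the Cox2 row is numbered next to an Atpase6 row and close to mt-Nd4 and Cytb. It averaged 19891 against 13738 in the authors' deposited table. These rows lay among those with a mean of at least 5000, where 69.3% of all 163 rows were called higher and the median log2 ratio was 0.38. Whether the mitochondrial rows differ from the nuclear subunits was not tested.

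**Figure D5:**
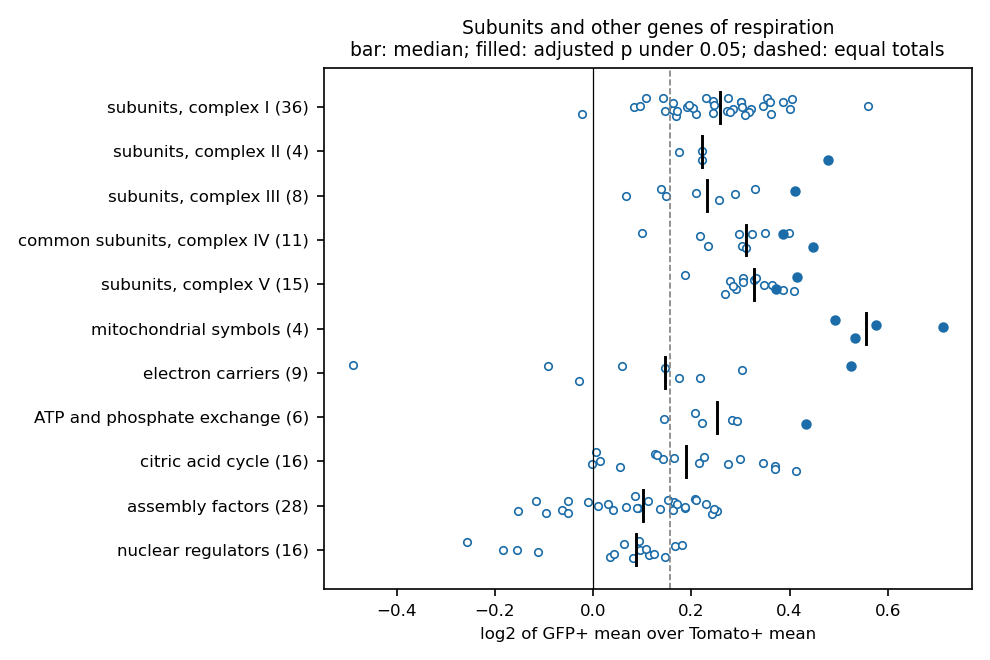
Log2 ratio of GFP+ over Tomato+ (horizontal axis) for subunit genes by complex and for other genes of respiration, with the number of genes in brackets; bars mark medians, filled points passed the adjusted p under 0.05, and the dashed line marks equal totals. Cox7a2l is counted with the common subunits of complex IV, whose restricted isoforms are not drawn. Cyc1, a complex III subunit outside the symbol rule, is drawn with the electron carriers. The median of the 4 mitochondrial symbols lies furthest right, and those of electron carriers, assembly factors and regulators lie left of the dashed line.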

How the data were processed

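RNA was measured in 8 libraries. Per the submitters' processing notes, DESeq, bedtools, TopHat, TopHat2 2.0.11 and Bowtie2 2.2.1 were used with build mm9, at unstated settings. The authors deposited, per the file headers, mean normalized counts (a signal per group) and a fold change (ratio of group means) with its log2. They also deposited a p-value per row and its adjusted form, which equalled a Benjamini-Hochberg adjustment over all rows within 5.28e-08. The repeated header line was dropped, the sign was turned so that positive log2 values mean higher in GFP+, and the row with the highest mean was kept for a repeated symbol. Counts, medians, level bins and motif searches were computed with Python 3.11.15 and pandas 2.3.3, and the counting step was tested on simulated data. The depth per library is unknown. The threshold was the authors' adjusted p under 0.05, and a minimum mean of 50 was an alternative. Genes to be named were those past the threshold, the 2 smallest p-values and the extremes of log2 ratio per complex or list, and listed isoforms; others were chosen after their values were seen. The genes and lists were chosen with earlier results of these data known. The values of 1 gene are not reported here singly. Genes of respiration have many processed pseudogenes, and the sources used here do not say how shared reads were assigned.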

Additional observations from a re-analysis of the deposited data

How the results depend on the processing

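No paired analysis was possible because only group means, not single libraries, could be analysed. A replicate block, other size factors and leaving out single libraries were therefore not run. Against 9 called genes, 16 were called at an adjusted p under 0.1, 2 at 0.01 and 0 with a Bonferroni adjustment, where 36 genes had an unadjusted p under 0.05. The shares of all rows called at 0.1, at 0.01 and with Bonferroni were not computed, so these counts describe the threshold only. By complex, calls at 0.1 were unchanged at 2 (I), 1 (II) and 1 (III), and went from 3 to 4 (IV) and from 2 to 8 (V). At 0.01 the calls were 1 (I), 0 (II), 0 (III), 1 (IV) and 0 (V), and with Bonferroni 0 in each complex, both by a stricter criterion. A mean of at least 50 left 1 call in complex I, since Ndufa4l2 is removed. Counting Ndufa4 and Ndufa4l2 with complex IV, an alternative chosen after seeing the data, left 0 of 40 calls in complex I and gave 5 of 18 in complex IV. With equal totals the median log2 ratio was 0.12 over all genes and 0.087, 0.066, 0.076, 0.15 and 0.15 for complexes I to V. Centring on rows with a mean of at least 50 gave 0.25, and 0.21, 0.19, 0.20, 0.28 and 0.27. Subunits only gave 0.29 over all genes, 0.26 for complex I and 0.33 for complex V, and a mean of at least 50 gave 0.30 for complex IV. No median changed sign under these alternatives. The depth per library is unknown, so nothing can be said of the precision of low means such as those of Ndufa4l2 and Cox6a2.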
